A study of Rattus norvegicus with 2 samples.

Results

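The constitutive proteasome subunit genes are 34 rat genes of the standard proteasome and its base assembly chaperones, matched by gene symbol. The list was chosen with earlier results of these data known. They comprise 7 alpha and 7 beta subunits of the core particle, 6 ATPases of the regulatory particle and 14 non-ATPase genes of the regulatory particle. Of the 34, 33 had a probe set of their own that reached the signal floor of 19.8 (the median of all signals on both arrays) on at least 1 array, out of 9956 such genes. The exception was Psmb6, whose single probe set is also annotated to Psmb6l1. Samples were adductor muscle, an inner-thigh muscle, of male Lewis rats of 275 g, an inbred strain. The stimulated sample came from a left hindlimb that had received 100 pricks with a steel needle of 0.14 mm within a square of 10 mm by 10 mm, and was taken after 24 hours. The control sample came from a right hindlimb left unpricked. Each group was 1 Affymetrix array, and the labels give neither the age nor the number of the rats, nor whether tissue was pooled.

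The proteasome is the protease complex that degrades most proteins tagged with ubiquitin. Its barrel-shaped core is built of stacked rings, with alpha subunits forming the gated outer rings and beta subunits the inner rings that hold the catalytic sites. The regulatory particle caps the core. Its ATPases unfold the substrate and open the gate, and its non-ATPase subunits bind ubiquitin chains, remove them and hold the assembly together. In skeletal muscle this system breaks down myofibrillar proteins, and the ubiquitin ligases Trim63 (MuRF1) and Fbxo32 (atrogin-1) are its best-known muscle partners. Transcription of the subunit genes can be raised together by the transcription factor NFE2L1 through antioxidant response elements.

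Constitutive proteasome genes were higher in the pricked limb, broadly and by small amounts. Of the 33 measured genes, 31 had a log2 ratio of stimulated over control above 0, where 52.3% of all measured genes did, and 2, Psmc5 and Psmd9, lay below 0, where 47.7% did. With quantile normalization 27 of 33 lay above 0, because Psma7, Psmb5, Psmd1 and Psmd2, all within 1.03-fold here, turned negative. The median log2 ratio was 0.31, or 1.24-fold, against 0.019 for all measured genes. A difference of 1.2-fold or more was seen upward in 18 members, where 23.7% of all genes had it, and downward in 1 member, where 21.4% did. Only Psmd11 was at least 1.5-fold higher (6.59% of all genes), none was at least 1.5-fold lower (6.94%), and none was at least 2-fold higher (1.43%). No difference has a replicate check or a test, since each group has 1 array.

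The sole repeat measurement was that of different probe sets of 1 gene, which gave an SD of 0.31 for a single probe set's log2 ratio over 2174 genes and 0.25 over the brightest 725 of them. This spread leaves out variation between limbs and between animals. By this measure 17 of the 33 members lay more than 1 SD above 0, 1 lay more than 1 SD below it and 15 lay within 1 SD of 0. Over all genes, 19.5% lay more than 1 SD above 0, 18.0% more than 1 SD below it and 62.4% within 1 SD. The log2 ratios of the 33 members had an SD of 0.25 among themselves, the same as that of a single bright probe set. For all measured genes it was 0.43. Of those 9956 genes, 5312 had a mean signal under 100, where no member lay, so the members' SD and that of all genes are not like for like.

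**Figure D1:**
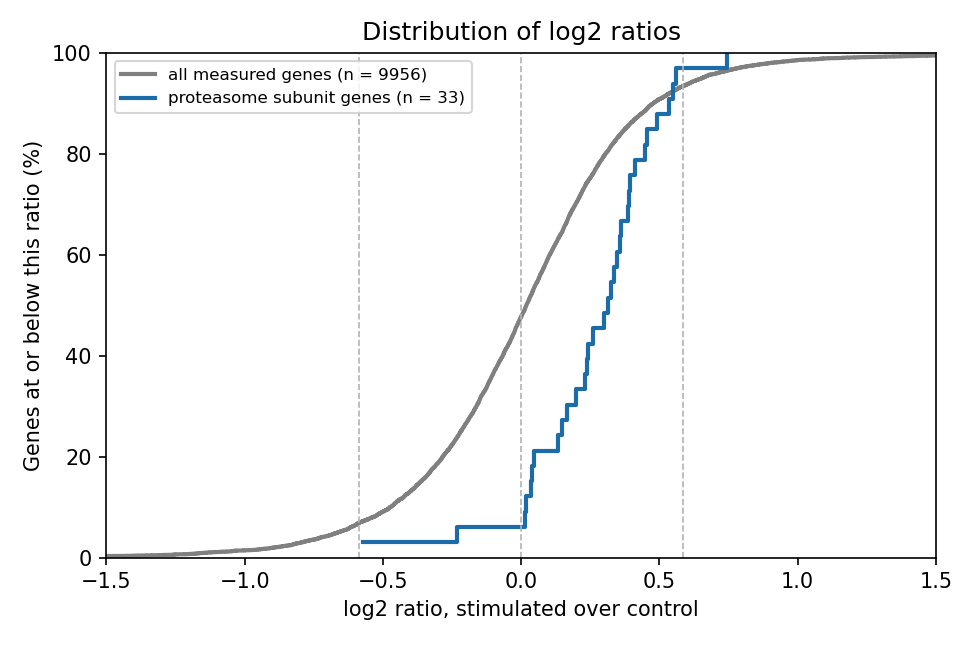
Cumulative share of genes (percent, vertical axis) by log2 ratio of stimulated over control (horizontal axis, cut at -1.5 and 1.5) for all 9956 measured genes (grey) and 33 constitutive proteasome genes (blue); dashed lines mark 1.5-fold lower, no difference and 1.5-fold higher. The blue curve runs to the right of the grey curve over most of its range and ends at 0.75, and 31 of 33 members lie above 0; 27 of 33 do with quantile normalization.

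Promoters were examined because 31 of the 33 members lay above 0 (27 with quantile normalization). RefSeq promoter windows, from 250 bases before to 50 after the annotated start (build GRCr8), were found for 30 of the 34 members. The motif TGACNNNGC, a short form of the antioxidant response element, was searched on both strands and stood in 7 of the 30 windows (23.3%), where 12.2% of 27457 windows of all genes held it. Those members were Psma3, Psmb2, Psmb5, Psmb6, Psmd1, Psmd3 and Psmd9. The motif CCAAT, the letters that NF-Y binds, stood on either strand in 16 of the 30 windows (53.3%), against 37.7% of all. The TATA box letters TATAAA stood in 4 of the 30 (13.3%), against 14.3% of all. TGACNNNGC and CCAAT shared bases in 1 window, that of Psmb2. A match is a run of letters and not a measured binding site.

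Windows of 29 bases around a TGACNNNGC match are shown for Psmb2 (log2 ratio 0.39), Psmb5 (0.036), Psmd1 (0.014), Psmd9 (-0.57) and Psmb6. Psmb6 has no ratio of its own. Windows of Psma3 (0.41) and Psmd3 (0.24), and those of the second matches in Psmd1 and Psmd9, are left out. The windows shown run 5′ to 3′ on the gene's strand, with the match in capitals. They lie at chr5:144254980-144255008, plus strand (Psmb2, 68 bases before the start), chr10:55737854-55737882, plus strand (Psmb6, 24 bases before), chr15:32047421-32047449, minus strand (Psmb5, 60 bases before), chr9:94157796-94157824, plus strand (Psmd1, 165 bases before) and chr12:39018323-39018351, minus strand (Psmd9, 77 bases before).
Psmb2: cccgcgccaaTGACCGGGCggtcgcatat
Psmb6: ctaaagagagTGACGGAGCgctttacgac
Psmb5: cgtgaagctgTGACGTCGCggcgttgccc
Psmd1: accagatctaTGACCTCGCgagaattata
Psmd9: gagtttccggTGACCTCGCcccacctcca

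Windows of 25 bases around CCAAT are shown for the member with the highest ratio among those that hold the motif in each of the 4 subunit classes. They lie at chr17:55260504-55260528, minus strand (Psma2, 77 bases before the start), chr3:42827565-42827589, minus strand (Psmb7, 109 bases before), chr3:97487617-97487641, plus strand (Psmc3, 16 bases before) and chr19:52411425-52411449, minus strand (Psmd7, 123 bases before).
Psma2: tgactctcctCCAATcagagcaaag
Psmb7: aactctatgcCCAATaaagccagtt
Psmc3: cgcgcgccggCCAATagcagcccac
Psmd7: agggcaaggcCCAATgacaagtcaa

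The presence of TGACNNNGC did not go with a higher ratio. The 6 measured members with the motif had a median log2 ratio of 0.14, from -0.57 (Psmd9) to 0.41 (Psma3). The 23 measured members whose window lacked it had a median of 0.34, from -0.23 (Psmc5) to 0.75 (Psmd11). The 16 members with CCAAT and the 13 without had nearly equal medians, 0.33 in both. These are descriptions of few genes, and no test was made.

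All 7 alpha subunit genes were above 0, with a median log2 ratio of 0.35 and a range of 0.040 to 0.45. Alpha subunits form the outer rings of the core, and their N-terminal tails form its gate. Psma2 had a signal of 1215 in the stimulated and 891 in the control limb, 1.36-fold higher. Psma3 had signals of 244 and 183, 1.33-fold higher. A second probe set, annotated to both Psma3 and Psma3l and therefore not counted, had signals of 2024 and 1729 and a log2 ratio of 0.23, so the shared probe set pointed the same way by a smaller amount. With it in place of the Psma3 probe set, the median of the alpha class was 0.23. Psma5 had signals of 1189 and 909, 1.31-fold higher. Psma6, at a log2 ratio of 0.35, was the other alpha gene beyond 1.2-fold, and Psma4 followed at 0.20. Psma1 (871 and 844) and Psma7 (1720 and 1672) were near equal on the 2 arrays, and the sign of Psma7 turned under quantile normalization.

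The 6 measured beta subunit genes were also all above 0, with a median of 0.35 and a range of 0.036 to 0.49. Only 3 of the constitutive beta subunits carry proteolytic sites, and these differed from each other. Psmb7, the trypsin-like subunit, had signals of 2280 in the stimulated and 1663 in the control limb, 1.37-fold higher. Psmb5, the chymotrypsin-like subunit, had signals of 2014 and 1965, a 1.02-fold difference, and its sign turned with quantile normalization; its 2 further probe sets lay below the floor on both arrays. Psmb6 is the caspase-like subunit. The probe set it shares in annotation with Psmb6l1 had signals of 1471 and 1185, 1.24-fold higher, and the 2 genes cannot be told apart in it.

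The beta subunits without a proteolytic site were higher as well. Psmb4 had signals of 3056 and 2174, 1.41-fold higher, the largest ratio of the beta class. Psmb2 had signals of 950 and 722, 1.31-fold higher. Psmb1 and Psmb3 had log2 ratios of 0.31 and 0.23. Over the beta class, Psmb5 stood lowest and the remaining 5 lay between 0.23 and 0.49.

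**Figure D2:**
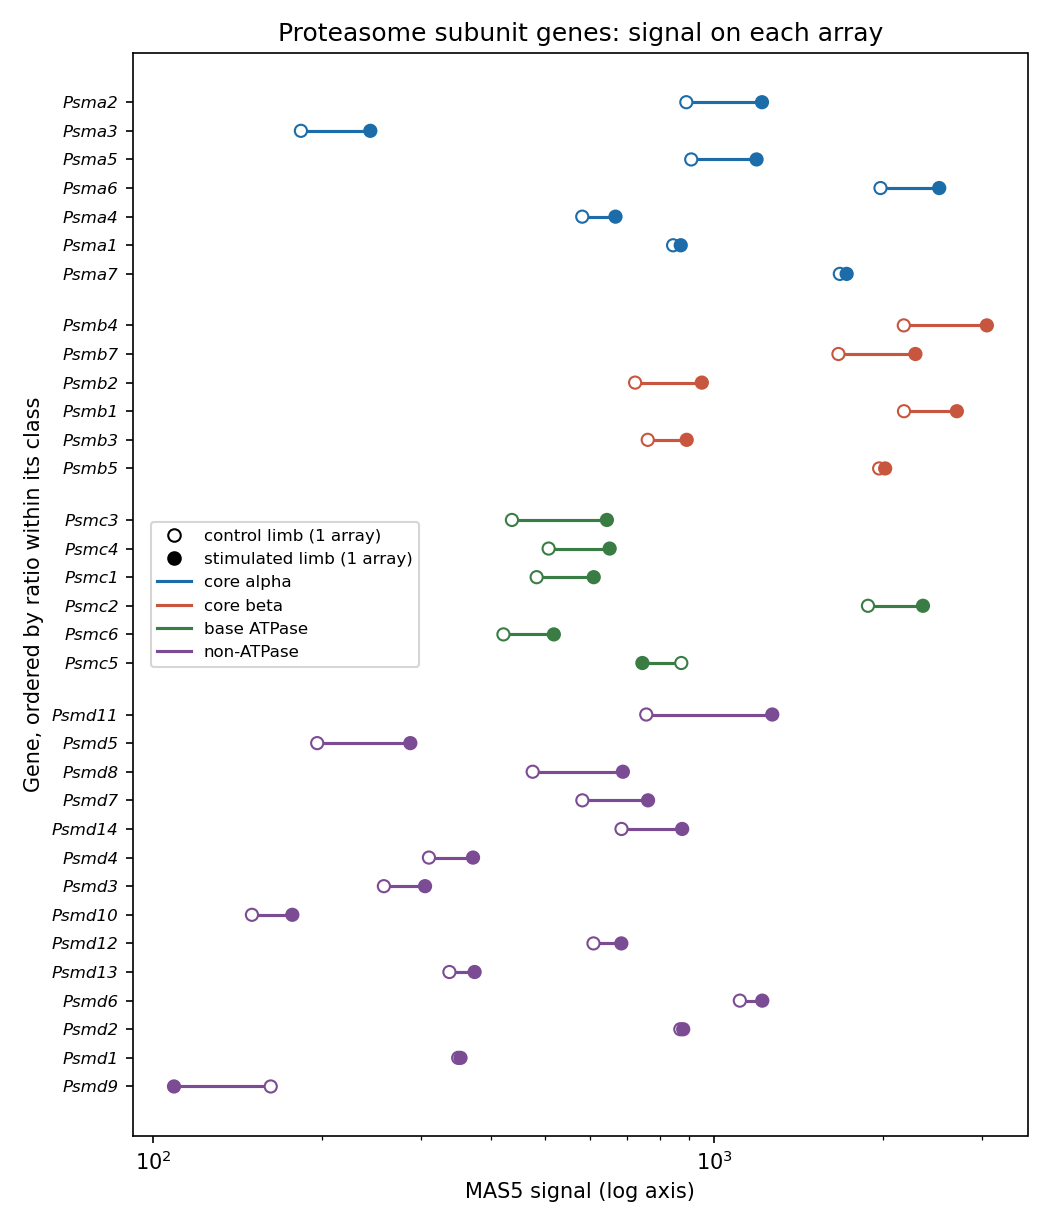
MAS5 signal (horizontal log axis) of each of the 33 measured genes in the control limb (open circle) and the stimulated limb (filled circle), 1 array each, joined by a line and coloured by subunit class; signals of different genes come from different probes and are not comparable with each other. The filled circle lies to the right in 31 genes (27 with quantile normalization) and to the left in Psmc5 and Psmd9 (Psmd9 alone with spike-in scaling); no member lay below the floor of 19.8 on either array.

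Of the 6 ATPase genes, 5 were above 0, where 52.3% of all genes were. All 5 were at least 1.2-fold higher, where 23.7% of all genes were, and the class median was 0.33. The ATPases form the ring that threads substrates into the core. Psmc3, one of the ATPases whose C-terminal tail docks into the alpha ring, had signals of 643 in the stimulated and 436 in the control limb, 1.48-fold higher and the largest ratio of the class. Psmc4 had signals of 651 and 507, 1.28-fold higher. Psmc1 had signals of 610 and 482, 1.26-fold higher. Psmc2 was at a log2 ratio of 0.33. Psmc6 was measured by 3 probe sets, with log2 ratios of 0.30, 0.24 and 0.48, all above 0.

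Psmc5 was the exception among the ATPases. It had signals of 744 in the stimulated and 873 in the control limb, a log2 ratio of -0.23, which is within 1 SD of a single probe set. With scaling to the hybridisation spike-ins its log2 ratio was 0.15, which is still -0.24 relative to the median gene under that scaling. Only 1 probe set represents the gene, so no second value is at hand.

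The 14 non-ATPase genes were the most varied class, with a median of 0.24 and a range of -0.57 to 0.75, and 13 lay above 0 (11 with quantile normalization). Of these 14, 5 exceeded the control by 1.2-fold or more, where 23.7% of all genes did. In 1, the control exceeded the stimulated signal by that much, where 21.4% of all genes did. Psmd11 (Entrez gene 303353), a scaffold subunit of the lid that clamps the regulatory particle to the core, had signals of 1268 in the stimulated and 756 in the control limb, 1.68-fold higher. That was the largest ratio of all 33 members, and 3.48% of all measured genes had a higher one. Its second measured probe set did not share this difference, with signals of 259 and 258 and a log2 ratio of 0.0095. With the median over probe sets, Psmd11 was at 0.38 and no member reached 1.5-fold.

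Among the other subunits of the lid, which removes ubiquitin chains, Psmd8 had signals of 687 and 475, 1.45-fold higher. Psmd14, the deubiquitinase of the lid, was at 0.36 (876 and 683), and its 2 further probe sets were at 0.19 and 0.036. Psmd7, which pairs with Psmd14 in the complex, was at 0.39, with a second probe set at 0.22. Psmd3, Psmd12, Psmd13 and Psmd6 lay between 0.13 and 0.24. All lid subunit genes in the list were thus above 0, and Psmd8, Psmd14, Psmd7 and Psmd11 led them.

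The large scaffold subunits of the base were near equal on the 2 arrays. Psmd1 had signals of 353 in the stimulated and 350 in the control limb, and Psmd2, which also docks ubiquitin-like proteins, 880 and 870. Both were 1.01-fold higher, and their log2 ratios lay below 0 once centred on the median gene. Psmd4, the subunit that receives ubiquitin chains, was at 0.26 (372 and 310).

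Psmd5, Psmd9 and Psmd10 encode chaperones that help to assemble the base and are not part of the finished proteasome. They did not move as a group. Psmd5 had signals of 287 in the stimulated and 196 in the control limb, 1.47-fold higher, and Psmd10 was at 0.24 (177 and 150). Psmd9 (Entrez gene 161475) had signals of 109 and 162, a log2 ratio of -0.57 or 1.49-fold lower, the lowest of all members. Psmd9 was also the dimmest member, and its second probe set was below the floor on both arrays.

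**Figure D3:**
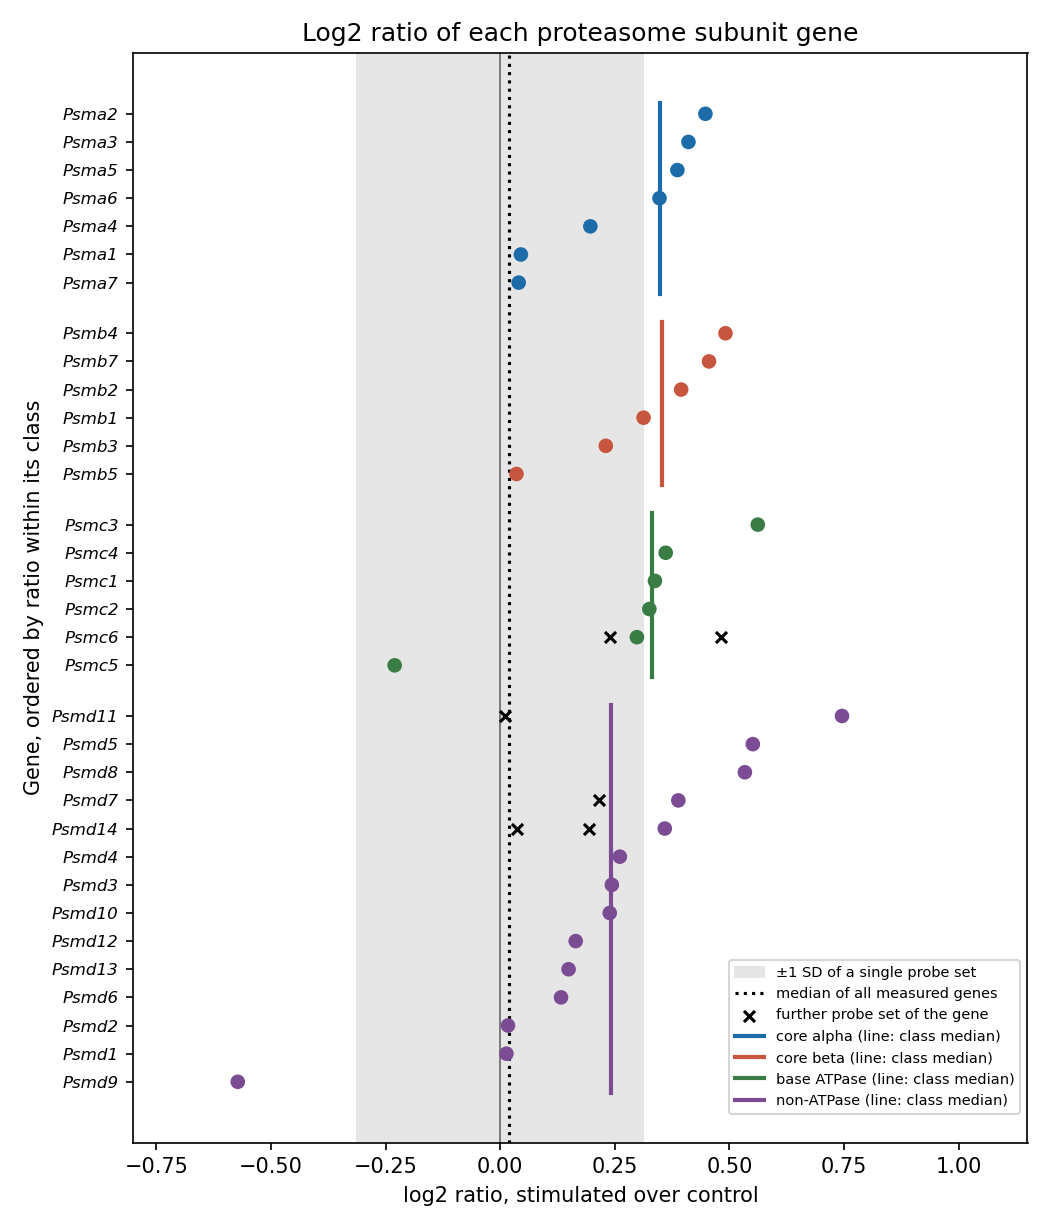
Log2 ratio of stimulated over control (horizontal axis) of each of the 33 measured genes (filled circles, coloured by class, ordered within each class), with further measured probe sets of the same gene as crosses, the class median as a vertical line and ±1 SD of a single probe set (0.31) as the grey band. Class medians were 0.35, 0.35, 0.33 and 0.24 from top to bottom; 17 genes lie to the right of the band and Psmd9 to its left, and the 2 Psmd11 probe sets lie at 0.75 and 0.0095.

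Taking probe sets rather than genes, 37 of the 39 measured probe sets of the members lay above 0. Of the 4 members with more than 1 measured probe set, Psmc6, Psmd7 and Psmd14 had probe sets that lay within 0.32 of each other, and those of Psmd11 were 0.74 apart. Signal strength was examined because the members were bright. Of all measured genes with a mean signal of 500 to 2000, 60.5% lay above 0 and the median was 0.075. Of the 20 members in that range, 19 lay above 0 with a median of 0.35. From 100 to 500, 8 of 9 members lay above 0 with a median of 0.24, against 57.0% and 0.046 for all genes. From 2000 up, all 4 members lay above 0 with a median of 0.34, against 49.4% and -0.0083. No member had a mean signal under 100.

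The immunoproteasome genes, whose products replace the catalytic beta subunits in immune cells and after interferon, went the other way from the constitutive beta genes relative to the median gene. Psmb8 had signals of 84.5 in the stimulated and 100.2 in the control limb, Psmb9 147.9 and 184.2, and Psmb10 138.8 and 160.2. Their log2 ratios of -0.25, -0.32 and -0.21 were all below 0, and with spike-in scaling all 3 lay above 0 and below the median gene. The difference between these 3 genes and the constitutive beta genes was not tested.

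Other proteasome factors showed no common direction. The activator subunits Psme1 and Psme2 had log2 ratios of -0.055 (a dim second probe set at -0.29) and 0.33. The activator Psme4 was at 0.025, with further probe sets at 0.33 and 0.13, and the inhibitor Psmf1 at -0.25. Of the 5 core assembly chaperone genes, 4 lay above 0, led by Psmg3 (0.33) and Pomp (0.32), the maturation factor of the core. Their median was 0.067. Of 7 measured proteasome-bound factors, 4 lay above 0 with a median of 0.023. They included Sem1, a small lid subunit (0.23), and the deubiquitinase Usp14 (0.29). Adrm1, a ubiquitin receptor of the regulatory particle like Psmd4, had signals of 221 in the stimulated and 302 in the control limb, a log2 ratio of -0.45.

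Genes upstream of the proteasome were mixed. The 14 measured ubiquitin-activating and ubiquitin-conjugating enzyme genes had a median of 0.066, with 8 above 0, where 52.3% of all genes were. Of the 14, 3 were at least 1.2-fold higher (23.7% of all genes), led by Ube2n (0.49, with a second probe set at -0.061). Of 9 genes for ubiquitin shuttles, the segregase Vcp and its cofactors, 4 lay above 0. Nsfl1c, a Vcp cofactor, was at 0.58, the shuttle Ubqln2 at 0.48 and Vcp itself at 0.20. The lowest of the 5 genes below 0 were Ubqln1 (-0.25) and Ddi2 (-0.22), and the list's median was -0.014.

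Among 10 measured ubiquitin ligase genes, 7 lay above 0 with a median of 0.26. Trim63 had signals of 1584 in the stimulated and 874 in the control limb, a log2 ratio of 0.86, and the other ligases above 1.2-fold were Fbxo31 (0.46), Stub1 (0.35), Mdm2 (0.30) and Fbxo30 (0.27). Fbxo32 was at -0.42 with low signals of 30.9 and 41.3, and Traf6 at -0.51, with further probe sets at -0.11 and -0.16. Nedd4 was at -0.22, with further probe sets from -0.66 to -0.38. Nfe2l1 had signals of 163 and 221, a log2 ratio of -0.44, with further probe sets at -0.13 and -0.69. All 3 probe sets of this regulator lay below 0. With spike-in scaling its brightest probe set was at -0.054, which is still -0.45 relative to the median gene under that scaling. Nfe2l2, a relative of Nfe2l1, was at -0.024. Whether NFE2L1 had a part in the subunit values was not tested.

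**Figure D4:**
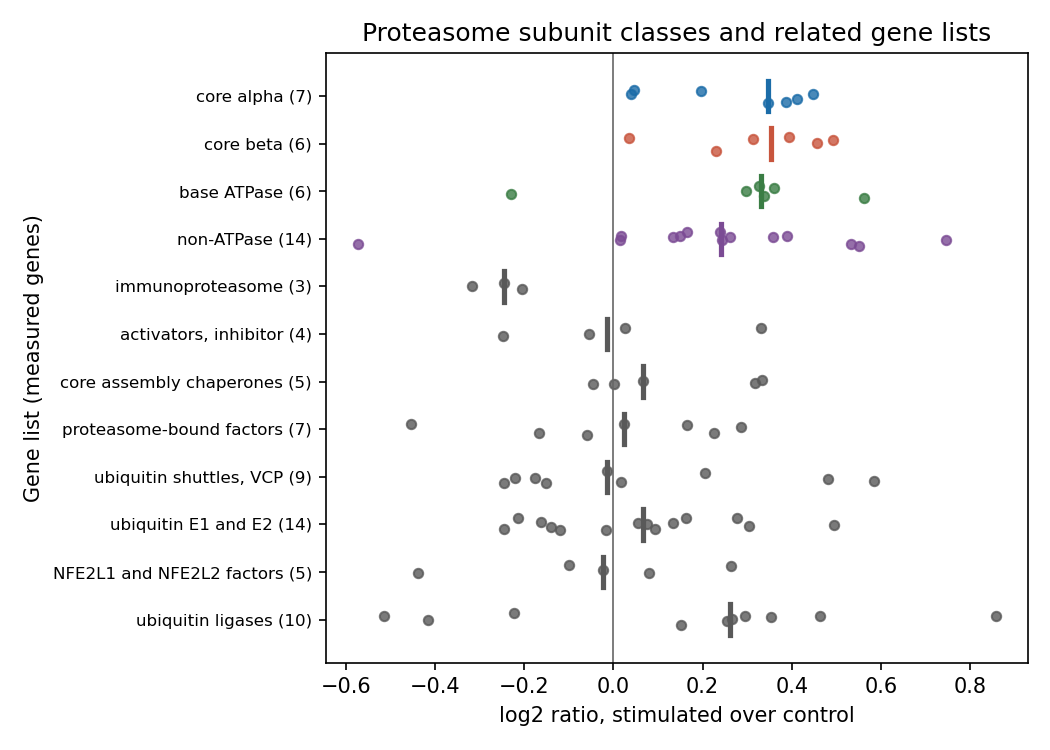
Log2 ratio of stimulated over control (horizontal axis) of each measured gene in the 4 constitutive subunit classes (coloured) and 8 related gene lists (grey), with the list median as a bar and the number of genes in brackets; vertical scatter within a row is random and has no meaning. The constitutive classes have medians of 0.24 to 0.35, the ubiquitin ligases 0.26 and the immunoproteasome -0.25 (0.14 with spike-in scaling); the other lists lie between -0.024 and 0.067.

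Markers of several cell types differed between the same 2 arrays. Skeletal muscle markers were present at high signal, such as Acta1 (12095 and 16712). Of 13 measured markers, 12 lay below 0, and the median was -0.42, which was 0 with quantile normalization. The 1 above 0 was Myh2 (2010 and 1007.5, a log2 ratio of 0.997). Myh1 was at -0.021, with further probe sets from -0.22 to 0.15. The 13 skeletal muscle markers summed to a signal of 114497 with stimulation and 151151 without. Of 18 macrophage markers, 13 lay above 0 and 7 were at least 2-fold higher (1.43% of all genes were), with summed signals of 16611 and 7090. These sums rest largely on Lyz2 (5096 and 3449), Gpnmb (3165 and 188), Spp1 (2847 and 12.7) and Lgals3 (2027 and 599). The 5 macrophage markers below 0 were C1qa (-0.53), C1qb (-0.58), C1qc (-0.83), Fcgr3a (-0.56) and Ccr2 (-0.27). The last 2 were below the floor on the stimulated array. Endothelial markers had a median of -0.65, with 12 of 13 below 0 and summed signals of 1027 and 1766, and 6 of 7 measured adipocyte markers lay below 0, with summed signals of 1926 and 3608. The 10 fibroblast and tendon markers went both ways, with summed signals of 17945 and 20133. The tendon-type genes Thbs4, Tnmd and Fmod had log2 ratios of 2.97, 2.74 and 2.72, while Dcn, Col1a1, Col1a2 and Col3a1 lay between -0.38 and -0.26. Only 2 of 10 neutrophil, 3 of 12 lymphocyte and 2 of 6 red cell markers were measured. The summed signal of the 33 proteasome genes was 34180 and 27962, a ratio of 1.22. In whole tissue a change in the mix of cells and a change in RNA per cell cannot be told apart, and the part of the cell mix in the proteasome values was not tested.

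The arrays were alike in the share of probe sets at or above the floor and in the 3′-to-5′ ratio, but differed in spike-in signal. At or above the floor lay 48.9% of probe sets on the stimulated and 51.1% on the control array. These 2 shares are tied to each other, because the floor is the median of both arrays, and are not separate quality measures. The 3′-to-5′ signal ratio of beta-actin, which reflects how intact the RNA was, came to 2.43 and 2.26. The hybridisation spike-ins, bacterial and phage RNAs added in fixed amounts, read lower in the stimulated hybridisation on all 18 of their probe sets, by a median of -0.38 on the log2 scale. Scaling to them moved the median of all genes to 0.39, the share of all genes above 0 to 84.9% and the members' median to 0.70, with 32 of 33 members above 0 and 22 at least 1.5-fold higher, where 28.3% of all genes were. Relative to the median gene the members' median was then 0.31. Values above are therefore relative to the bulk of genes on the arrays and say nothing of the absolute amount of proteasome RNA.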

How the data were processed

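One table of the whole series was used, with 1 value per probe set for each of the 2 arrays. The values are signal intensities on a linear scale, which the authors computed with MAS5, as listed in the submitters' processing notes. This algorithm merges the probes of a set into 1 signal and scales each array by a single factor. The version was not given in the sources used here, nor was the target value. Of 31099 probe sets, 57 controls were set aside. Names came from the platform annotation: 20826 probe sets had 1 symbol, 436 several and 9780 none. All 33 member symbols with a probe set of their own matched the RefSeq gene table (GRCr8) by gene identifier.

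Signals below the median of all non-control signals (19.8) were raised to it, and log2 ratios of stimulated over control were taken. A probe set counted as measured where at least 1 array reached that floor. Where a gene had several measured probe sets, that of highest mean log2 signal stood for it. No test or p-value was possible with 1 array per group, and the number of arrays limits the precision of every value. The counting was tested on simulated data.

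Members and lists were chosen with earlier results of these data known. Values on both arrays are given for the 3 highest and the lowest member of each class, for the catalytic subunits and for members whose probe sets disagree by 0.62 or more or in sign. In related lists up to 4 genes of largest absolute ratio were named, and Nfe2l1, Psmb8, Psmb9, Psmb10, Psme1, Psme2, Trim63 and Fbxo32. Signals of further members, and names of further genes, were added after seeing their values. Alternatives numbered 11, of which 10 were planned and 1, a lowess curve, was added after seeing the data. Python 3.11.15, pandas 2.3.3, numpy 2.4.6 and statsmodels 0.14.6 were used.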

Additional observations from a re-analysis of the deposited data

How the results depend on the processing

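The members' median log2 ratio stayed positive and above that of all genes under all 11 alternatives, 0.22 to 0.31 above it. With scaling to the spike-ins the members' median was 0.70, and the class medians were 0.73 (alpha), 0.74 (beta), 0.72 (ATPase) and 0.63 (non-ATPase). Under that scaling 31 members were at least 1.2-fold and 22 at least 1.5-fold higher, where 63.7% and 28.3% of all genes were. The counts rose by construction, since this scaling adds the same amount to every ratio in which neither signal was raised to the floor. With probe sets of several genes added, which brought in Psmb6 and a brighter Psma3 probe set, the alpha median was 0.23. Taking each gene's median over its probe sets, 0 members were at least 1.5-fold higher, against 1 as reported. Centring on the median gene, or subtracting a lowess curve of ratio on signal, put 1 member, Psmd9, at least 1.5-fold lower, against 0 as reported. The number of members above 0 was lowest, at 27, with quantile normalization and with the lowess curve, and the members that turned negative were Psma7, Psmd1 and Psmd2 in both, Psmb5 in the former and Psma1 in the latter. Psmc5 turned positive (0.15) with spike-in scaling. No replicate could be left out, and no paired analysis was possible because each group has 1 array and the labels give no pairing. All members lay well above the signal floor, so the floor set none of their ratios.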
